A study of Mus musculus with 27 samples.

Results

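The Epiblast-like state is 1 of the 7 transcriptional states into which the authors divided their mouse embryonic stem cells (mESCs). Its members were taken as the cells of the only deposited state name with exactly 602 cells, and that name reads Epiblast-like. They made up 14.5% of the 4147 mESCs. All mESCs were of the B6 line, which the labels give as 129S1/SvImJ / C57BL/6. The cells were kept on gelatin in ESLIF, a medium with serum and leukaemia inhibitory factor (LIF), and 5 of 6 pre-culture conditions received a pulse of 2i, a medium with LIF in which GSK3 and MEK, both kinases, are inhibited. Condition 1 stayed in ESLIF, condition 2 was in 2i for 96 h, while 2i was given over the final 48 h to condition 3 and over the final 24 h to condition 4. In condition 5 a 2i pulse of 48 h was followed by 48 h of ESLIF, and in condition 6 a pulse of 24 h was followed by 24 h of ESLIF. Cells were sorted singly and sequenced with CEL-seq2, a plate method in which a barcode marks each transcript molecule. Each condition was 1 culture spread over 2 plates that the labels call technical replicates, so differences between conditions carry no error between cultures.

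Pluripotent mouse cells pass from a naive state, which resembles the epiblast before implantation, to a primed state, which resembles the epiblast after implantation. Between these lies a formative or epiblast-like state. Otx2, a transcription factor of the exit from naive pluripotency, Fgf5, a secreted growth factor of the post-implantation epiblast, and Pou3f1, a POU-domain transcription factor, are its usual markers. In 2i medium, blocking MEK shuts off the signal of fibroblast growth factor through ERK, and blocking GSK3 stabilises beta-catenin, and both hold cells near the naive ground state. Gene values were not analysed here, so the levels of Otx2, Fgf5 and Pou3f1 were not checked and Epiblast-like is used as the authors' name. Ground State Pluripotency, Ectoderm Priming and Mesoderm Progenitors are deposited under other names and were matched to the study's names by equal cell numbers alone. The measurements described are the state of each cell, its total count, its number of genes, its share of mitochondrial reads, its cell cycle scores and phase, and its place on the UMAP, the map on which cells with like transcriptomes lie close together.

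Between 284 and 365 cells per plate were in the table, and the median total count per cell lay between 6845 and 13669 over the 12 plates. Plates of conditions 3 and 4 had 18978484 to 33458578 sequenced reads each. Replicate 2 of condition 4 had the fewest cells of all plates, and 20.4% of them had under 2000 counts, against 10.2% on replicate 1. On condition 3 this share was 1.37% on replicate 1 and 11.6% on replicate 2. Low counts therefore differed between plates of the same culture, and results that depend on them are given with and without those cells. The cell barcodes stand for wells, and 145 of the 384 well numbers occurred on all 12 plates, as plates share 1 set of barcodes. No cell had the same count, number of genes and mitochondrial share as another.

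Nearly all Epiblast-like cells came from 2 of the 6 conditions. Condition 4 held 544 of them, 90.4% of the state (95% Wilson interval 87.7 to 92.5), and condition 3 held 55, or 9.14% (7.09 to 11.7). On the plates of condition 4 the share of Epiblast-like cells was 82.8% (78.5 to 86.3) on replicate 1 and 88.4% (84.1 to 91.6) on replicate 2, with a mean of 85.6% ± 3.97 (SD, n = 2 plates). On those of condition 3 it was 7.42% (5.15 to 10.6) and 8.12% (5.67 to 11.5), with a mean of 7.77% ± 0.494 (SD, n = 2 plates). Plates of the same culture thus differed by far less than the conditions did. The state was itself drawn from the transcriptomes of these same cells, so this contrast is a description and not a test. All these intervals cover counting error only, and with 1 culture per condition no test between conditions was made.

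**Figure D1:**
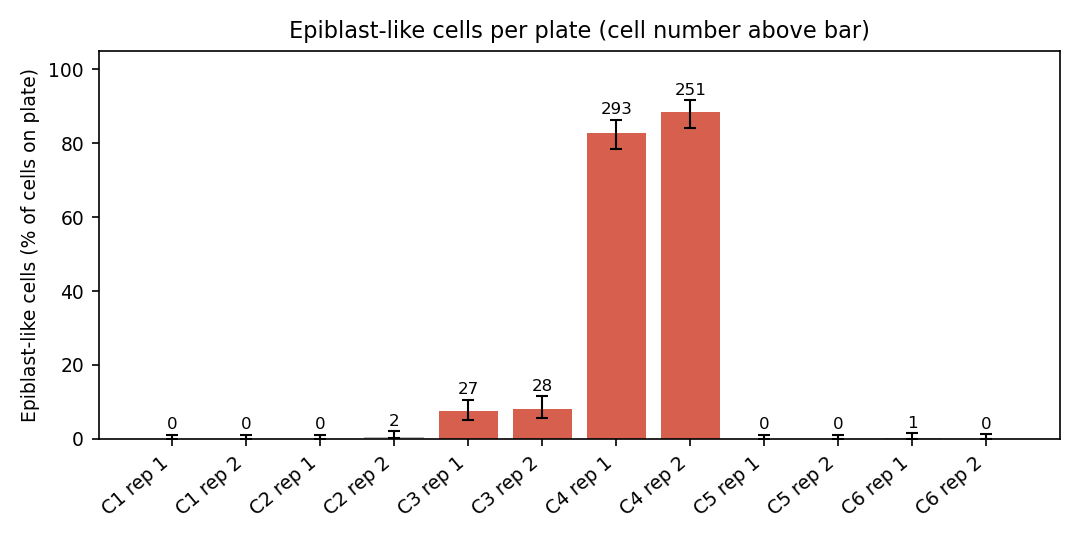
Share of Epiblast-like cells among all cells of each plate in percent, with bars for the 12 plates (C1 to C6 for conditions, 2 technical replicates each), 95% Wilson intervals as error bars and the number of Epiblast-like cells above each bar. The bars of condition 4 reach 82.8% and 88.4%, those of condition 3 reach 7.42% and 8.12%, and the other 8 plates hold 3 such cells together.

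Outside these conditions the state was close to absent. Condition 2, which received 2i for longest, had 2 Epiblast-like cells, both on replicate 2, and condition 6 had 1, on replicate 1. No Epiblast-like cell was found on either plate of condition 1 or of condition 5, nor on replicate 1 of condition 2 or replicate 2 of condition 6, which allows shares of up to 0.822% to 0.977% per plate. The 3 stray cells had 1327, 1980 and 460 counts, all of them far under the median of 10021 counts of the state. Conditions 4 and 6 both received 2i for 24 h, and they differ in the 24 h of ESLIF that followed in condition 6. The share of the state was 85.3% in condition 4, against 0.15% (0.0265 to 0.846) in condition 6.

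The remaining 94 of the 638 cells of condition 4 were mostly in 2 other states of the 2i conditions. Naive Pluripotency took 53 of them and Ground State Pluripotency took 25. These states also neighbour the Epiblast-like cells on the UMAP, where the centre of the Epiblast-like cells lay 3.22 units from that of the Naive cells and 4.47 units from that of the Ground State cells. The centres of the 2 large states of the ESLIF conditions, Ectoderm Priming and Primed Pluripotency, were 6.17 and 7.88 units away. UMAP distances have no unit and are not to scale over long ranges. Naive Pluripotency and Ground State Pluripotency were therefore used for comparison within plates.

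On the UMAP the state formed a compact field, in which 94.2% of the 15 nearest neighbours of a member were members too, averaged over the 602 cells. Members are 14.5% of all cells, which is the share that a random mixture would give. Because state and map were both made from the same transcriptomes, this is a description and not a test. For the members of condition 4 the share was 95.5% on replicate 1 and 98.6% on replicate 2, and for those of condition 3 it was 70.9% and 70.5%. Condition 3 members thus sat closer to other states on both of their plates.

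**Figure D2:**
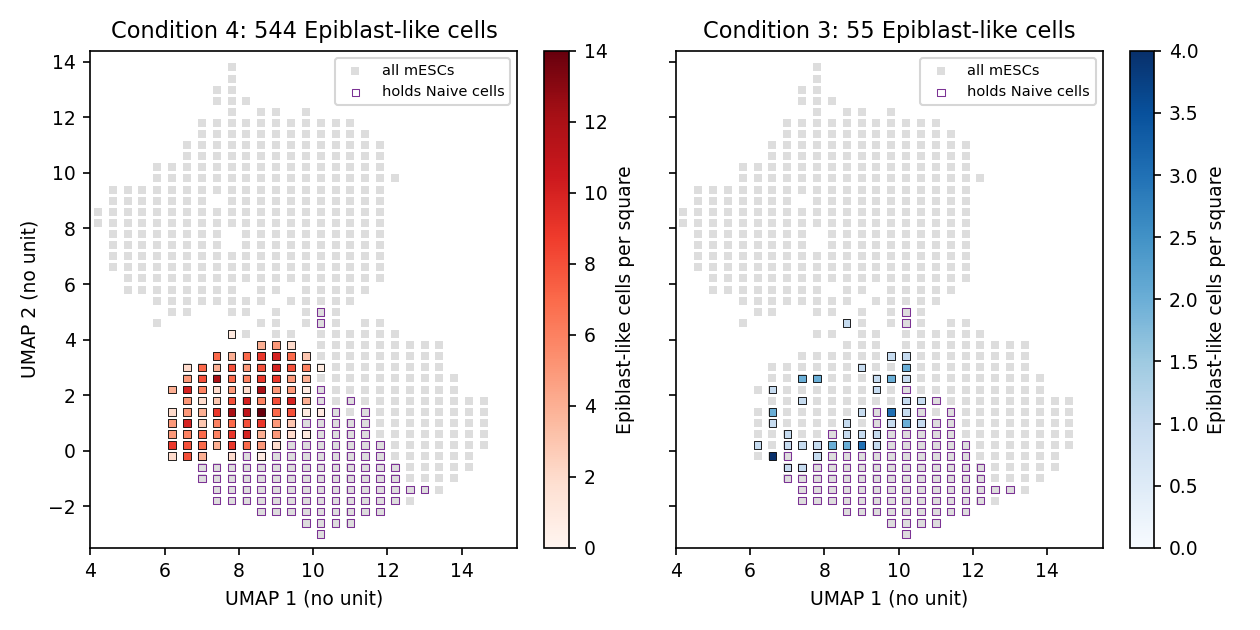
UMAP of the mESCs in squares of 0.4 units (axes without unit), with the number of Epiblast-like cells per square from condition 4 (left, red) and condition 3 (right, blue, on a scale of its own), all mESCs in grey and squares with Naive Pluripotency cells outlined in purple. Squares that hold Epiblast-like cells are outlined in black instead, and a few cells of other states lie outside the window. The condition 4 cells fill the field above and to the left of most Naive cells, up to 14 per square. The condition 3 cells lie mostly along the lower and right borders of this field, with some on its left.

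The border position of the condition 3 members showed in their neighbours. Of these neighbours, 20.1% were Naive cells and 8.24% Ground State cells, against 2.39% and 0.6% for members from condition 4. By origin, 68.2% of the neighbours of condition 3 members came from condition 4 and 30.1% came from condition 3. Fewer than 8 of the 15 neighbours were members for 16 of the 55 cells of condition 3 (29.1%, 18.8 to 42.1) and for 7 of the 544 cells of condition 4 (1.29%, 0.625 to 2.63). Conversely, all 15 neighbours were members for 34.5% of the condition 3 cells and 82.9% of the condition 4 cells. The centre of the condition 3 members was also nearer to that of the Naive cells, at 2.03 and 2.82 units for replicates 1 and 2, than the centre of the condition 4 members was, at 3.01 and 3.58 units. Of the 647 Naive cells, 547 came from condition 3 and 53 from condition 4, and of the 771 Ground State cells 88 and 25. Nearness to the Naive state and nearness to cells of the same culture and libraries therefore cannot be told apart.

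Which state lay next to a condition 3 member moved with its count. The 10 members under 2000 counts, all of them on replicate 2, had 27.3% Ground State and no Naive cells among their neighbours. The 45 members with at least 2000 counts had 4.0% Ground State and 24.6% Naive neighbours. In both classes, close to the same share of neighbours were members, at 67.3% and 71.4%. Condition 4 members under 2000 counts had 96.8% member neighbours and those above had 96.9%. The rest moved in the same direction as in condition 3. Condition 4 members under 2000 counts had 2.46% Ground State and no Naive neighbours, and those above had 0.383% and 2.67%.

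Naive cells, for their part, had more Epiblast-like neighbours when they came from condition 4. The share was 30.2% for the 40 Naive cells of its replicate 1 and 11.8% for the 13 of its replicate 2. For the 301 and 246 Naive cells of condition 3 it was 1.95% and 2.87%. Ground State cells of condition 4 had 14.9% and 12.8% Epiblast-like neighbours, and those of condition 3 had 2.22% and 6.9%. Cells of condition 4 that carried another name were thus placed nearer to the Epiblast-like field than cells of that name from condition 3, on both plates. The Ground State cells also differed in depth. Under 2000 counts were 24 of the 25 from condition 4, against 2 of 30 and 21 of 58 on the plates of condition 3. The part of depth was not tested. All cells of condition 4 shared 1 culture and 1 pair of libraries, and culture and library cannot be told apart here.

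Within the field, cells of 1 phase did not lie together. The phase of a member was shared by 49.1% of its member neighbours, against 49.4% for a random mixture of the members of all plates. The authors regressed the phase out before they made the map. Plates of condition 4 were mixed less fully. Among the neighbours of a member that came from condition 4, those on its own plate were 60.5% for replicate 1 and 57.0% for replicate 2, where random mixing of all cells of both plates would give 55.5% and 44.5%.

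The depth of the Epiblast-like cells differed between plates. Their median count was 12290 on replicate 1 of condition 4 and 8445 on replicate 2. On condition 3 it was 7163 on replicate 1 and 4886 on replicate 2. Single members ranged from 450 to 32706 counts. The median number of genes per cell followed the counts, with 4886 and 4003 for the 2 plates of condition 4, against 3557 and 2792 for the 2 plates of condition 3. Within each of the 4 plates, counts and genes of the members ranked almost alike (Spearman's rho 0.987 to 0.996 over 27 to 293 cells, which share library and depth). Genes per cell therefore added little beyond the count.

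**Figure D3:**
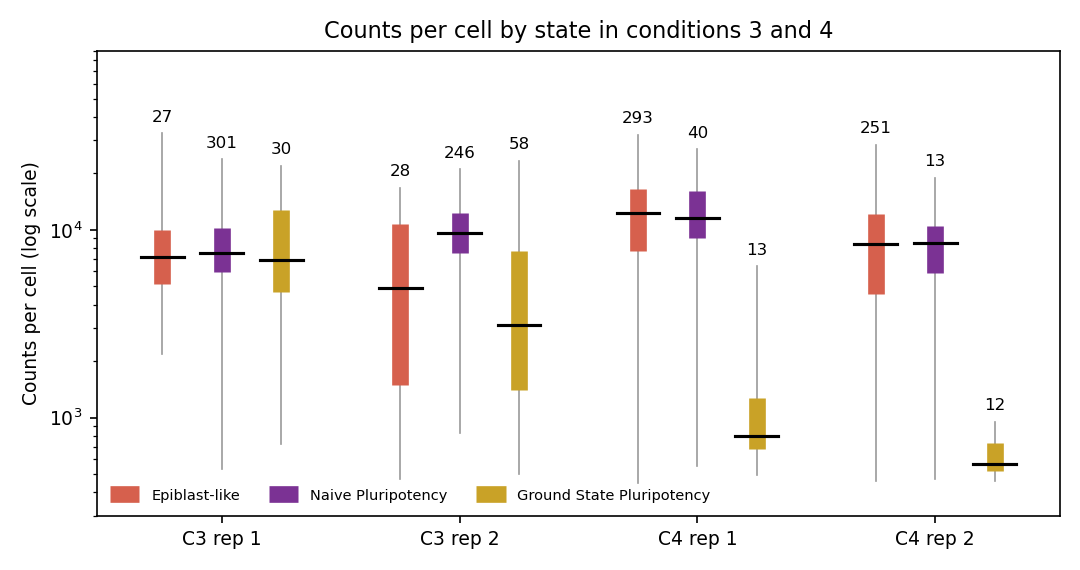
Counts per cell on a log scale for Epiblast-like, Naive Pluripotency and Ground State Pluripotency cells on the 4 plates of conditions 3 and 4, with a black line for the median, a box for the quartiles, a grey line from the lowest to the highest cell and the number of cells above it. The medians of the Epiblast-like and Naive cells lie close on 3 of the 4 plates, and the Ground State cells of condition 4 lie far lower, at medians of 795 and 564.5.

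Against Naive cells of the same plate, the counts of Epiblast-like cells showed no common direction. Their log2 median differed by -0.07 on replicate 1 of condition 3, -0.97 on replicate 2 of condition 3, 0.10 on replicate 1 of condition 4 and -0.01 on replicate 2 of condition 4. The mean difference was -0.24 ± 0.49 (SD, n = 4 plates), with p = 0.625 in an exact two-sided sign-flip test over plates (0.75 after Benjamini-Hochberg adjustment over all 24 tests of these measures). With 4 plates this test cannot go below 0.125. Replicate 2 of condition 3 carried most of the difference. There, 10 of 28 Epiblast-like cells (35.7%, 20.7 to 54.2) had under 2000 counts, against 3 of 246 Naive cells (1.22%, 0.416 to 3.52). With cells under 2000 counts left out, an alternative chosen after seeing the data, the mean difference was 0.01, and the exact test gave p = 0.875.

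Mitochondrial share and genes at equal counts had no common direction against the Naive cells either. Their share of mitochondrial reads, which rises in damaged cells, was 5.31% and 5.52% on condition 3 and 5.75% and 5.68% on condition 4 as plate medians. It was above that of the Naive cells on 2 of the 4 plates and below it on the other two, with a mean difference of 0.11 ± 0.549 percentage points (exact sign-flip p = 0.75, adjusted 0.857). The number of genes at equal counts, which is the distance of a cell from the line of log2 genes on log2 counts of its plate, differed by -0.003 ± 0.0207 log2 units (exact p = 0.625, adjusted 0.75). No single Epiblast-like cell had over 14.2% mitochondrial reads, far from the upper limit of 40% that the authors set.

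Against Ground State cells of the same plate, the Epiblast-like cells had higher counts, mainly in condition 4. The log2 median counts of Epiblast-like cells were above those of Ground State cells on all 4 plates, by 0.05 and 0.65 for the 2 plates of condition 3 and by 3.95 and 3.90 for the 2 plates of condition 4. The mean difference was 2.14 ± 2.08 (SD, n = 4 plates), or 4.4-fold when this mean of log2 differences is turned back into a ratio. It averages small differences on condition 3 and large ones on condition 4, and describes no single plate. The exact sign-flip p of 0.125 (adjusted 0.5625) is the smallest that 4 plates allow. Of the 25 Ground State cells of condition 4, 24 had under 2000 counts. With those cells left out only the plates of condition 3 had enough cells for the comparison, and the mean difference was 0.20 over 2 plates. Whether these low-count cells of condition 4 belong to the Ground State was not tested.

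The name given to a cell of condition 4 moved with its count. Among its cells under 2000 counts, 57 of 94 were Epiblast-like (60.6%, 50.5 to 69.9) and 24 were Ground State cells (25.5%, 17.8 to 35.2). From 2000 to under 5000 counts, 59 of 61 cells were Epiblast-like (96.7%, 88.8 to 99.1). In the 3 classes above, the share was 87.1%, 90.3% and 88.1%, and that of the Ground State was at most 0.613%. The lowest class was the only one below 80% on each of the 2 plates, with 52.8% on replicate 1 and 65.5% on replicate 2. In condition 3, Epiblast-like cells were 22.2% (12.5 to 36.3) of the cells under 2000 counts, and 5.38% to 11.5% in the 4 classes above. All 10 of those low-count cells were on replicate 2, and replicate 1 had none among 5 cells of this class. Naive cells were 3 of 5 cells of the lowest class on replicate 1 of condition 3 and 3 of 40 on replicate 2, and over both plates they were between 66.0% and 86.2% of the other classes.

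**Figure D4:**
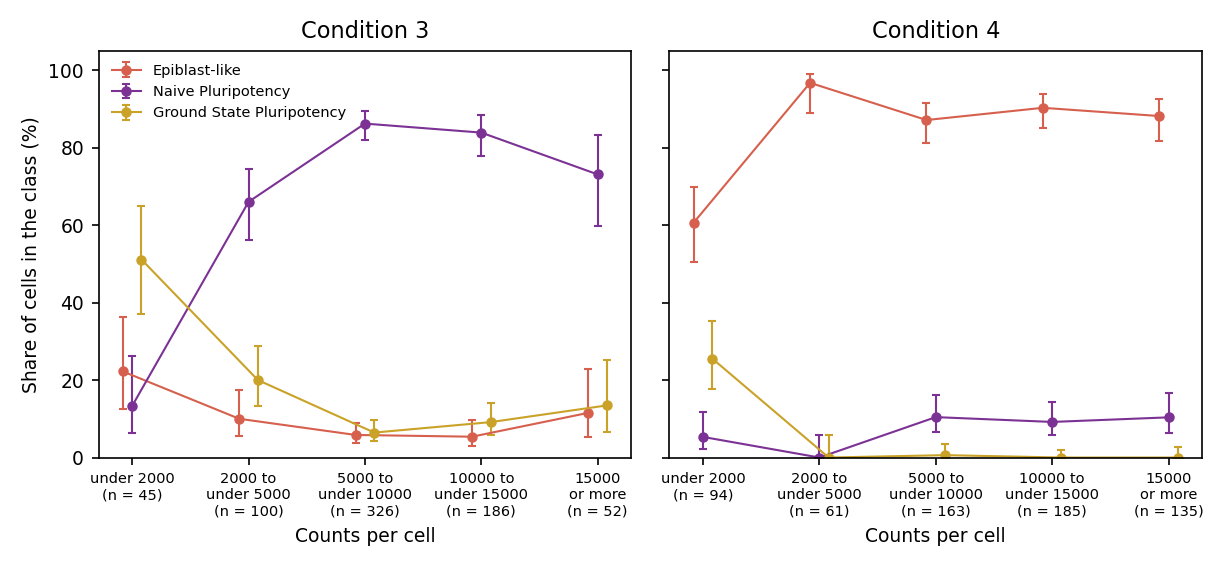
Share of Epiblast-like, Naive Pluripotency and Ground State Pluripotency cells in percent within 5 classes of counts per cell, for condition 3 (left) and condition 4 (right), both plates together, with 95% Wilson intervals and the number of cells of each class under the axis. The Epiblast-like share of condition 4 is 60.6% in the class under 2000 counts and 87.1% or more above it, and in condition 3 it is 22.2% in the lowest class and at most 11.5% in the others.

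When cells under 2000 counts were left out, the Epiblast-like share was 89.5% in condition 4 and 6.78% in condition 3, over the cells of both plates together. The contrast between the conditions was as large without these cells. On the second UMAP axis, the 57 members of condition 4 under 2000 counts had a median of 2.9 units and the 59 members from 2000 to under 5000 counts had 2.86 units. The 3 classes above had medians of 1.24, 1.33 and 1.86 units, so in condition 4 the members under 5000 counts had the higher medians. In condition 3 only the lowest class stood higher, with a median of 2.85 units for its 10 members under 2000 counts. Its classes above had medians of 0.326, 1.17, 0.362 and 1.01 units. Between count and second axis, Spearman's rho over members was -0.068 on replicate 1 and -0.628 on replicate 2 of condition 3. On replicates 1 and 2 of condition 4 it was -0.114 and -0.204.

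Nearly every Epiblast-like cell was called in S or G2M phase. Mouse embryonic stem cells are known for a short G1 phase, the gap between division and DNA synthesis. Of the 602 members, 295 were called in S phase (49.0%, 45.0 to 53.0), 303 in G2M phase (50.3%, 46.3 to 54.3) and 4 in G1. A call was the larger of the 2 scores, or G1 where both were below 0, a rule that gave the deposited phase of all 4147 cells. G1 calls were few in the neighbouring states as well, with 7 of 647 Naive cells and 13 of 771 Ground State cells. Endoderm Progenitors, a small state, had 15 of 45.

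On the plates of condition 4 the members in S phase were 49.1% (43.5 to 54.8) and 47.0% (40.9 to 53.2). On those of condition 3 they were 55.6% (37.3 to 72.4) and 57.1% (39.1 to 73.5), from 27 and 28 cells. The mean S score, which has no unit, was 0.0486 and 0.0493 on condition 3 and 0.048 and 0.0424 on condition 4. The mean G2M score was 0.0545 and 0.0497 on condition 3 and 0.047 and 0.0479 on condition 4. The spread among the cells of a plate was of the size of these means, with an SD of 0.0268 to 0.0375 for the S score and of 0.042 to 0.0493 for the G2M score. Within plates the 2 scores ran against each other, with Spearman's rho from -0.651 to -0.345, as a description over cells of 1 library. A gap of under 0.01 between the scores, where the call could go either way, was found in 63 of 544 members from condition 4 (11.6%) and in 3 of 55 from condition 3.

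Against Naive cells of the same plate, the S-phase share of the Epiblast-like cells was higher on 3 of 4 plates. It differed by 0.406 and -0.581 percentage points on condition 3 and by 4.15 and 23.9 points on condition 4, where the last value rests on 13 Naive cells. The mean was 6.98 ± 11.5 points (exact sign-flip p = 0.375, adjusted 0.5625), and without replicate 2 of condition 4 it was 1.32 points. The S score had a mean difference of 0.00572 ± 0.00953 and the G2M score one of 0.00395 ± 0.00633 (exact sign-flip p = 0.375 for each, adjusted 0.5625). With 4 plates this test cannot reach the threshold. Without replicate 2 of condition 4 these differences were 0.00161 and 0.00216. With cells under 2000 counts left out, an alternative chosen after seeing the data, the S-phase share of the Epiblast-like cells was above that of the Naive cells on all 4 plates. The mean difference was 9.83 points. The exact sign-flip p was then 0.125, the smallest that 4 plates allow. Within the middle quartiles of counts the mean difference in S-phase share had the opposite sign.

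Against Ground State cells the direction of the phases differed between conditions. The Epiblast-like cells had a larger share in S phase on both plates of condition 3, by 15.6 and 14.0 points. On both plates of condition 4 they had a smaller one, by -27.8 and -11.3 points. Shares in G2M phase went the other way, at -12.2 and -12.3 points on condition 3 and 27.1 and 10.5 points on condition 4. Over the 4 plates the exact sign-flip p was 1.0 for S and 0.875 for G2M. With 4 plates this test cannot go below 0.125, so the threshold was out of reach. The difference between conditions was not tested. The comparison group of condition 4 was 13 and 12 cells, of which 24 had under 2000 counts, and its part in the result was not tested.

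The phase of Epiblast-like cells moved with their count. In condition 4 the members in S phase were 61.3% (53.1 to 68.9) of those with 5000 to under 10000 counts, 51.5% (44.0 to 59.0) of those with 10000 to under 15000 and 26.9% (19.7 to 35.5) of those with at least 15000. Below 5000 counts the shares were 43.9% (31.8 to 56.7) under 2000 counts and 54.2% (41.7 to 66.3) from 2000 to under 5000. The G2M score was higher with each of the 3 upper classes, at means of 0.0364, 0.0471 and 0.067, while the S score had means of 0.0461, 0.051 and 0.0441. The median count of members in G2M was 14084 on replicate 1 of condition 4, against 11254 in S, and 9917 on replicate 2, against 7573. These are 1.25-fold and 1.31-fold higher counts.

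The same order was found in the other states. In the state with the most cells on each plate, the median count of G2M cells was above that of S cells on 12 of 12 plates. On the other 10 plates the ratio was 1.17 to 1.35, with a median of 1.23, so the 2 values of the Epiblast-like cells lay within that range. The share in S phase was lower at 15000 counts or more than at 5000 to under 10000 counts on all 12 plates. Among the members of condition 3 the ratio was 1.8 on replicate 1 and 0.29 on replicate 2, each from 12 to 16 cells per phase. The reversed order on replicate 2 stands beside a median of 2090 counts for its 12 G2M cells.

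**Figure D5:**
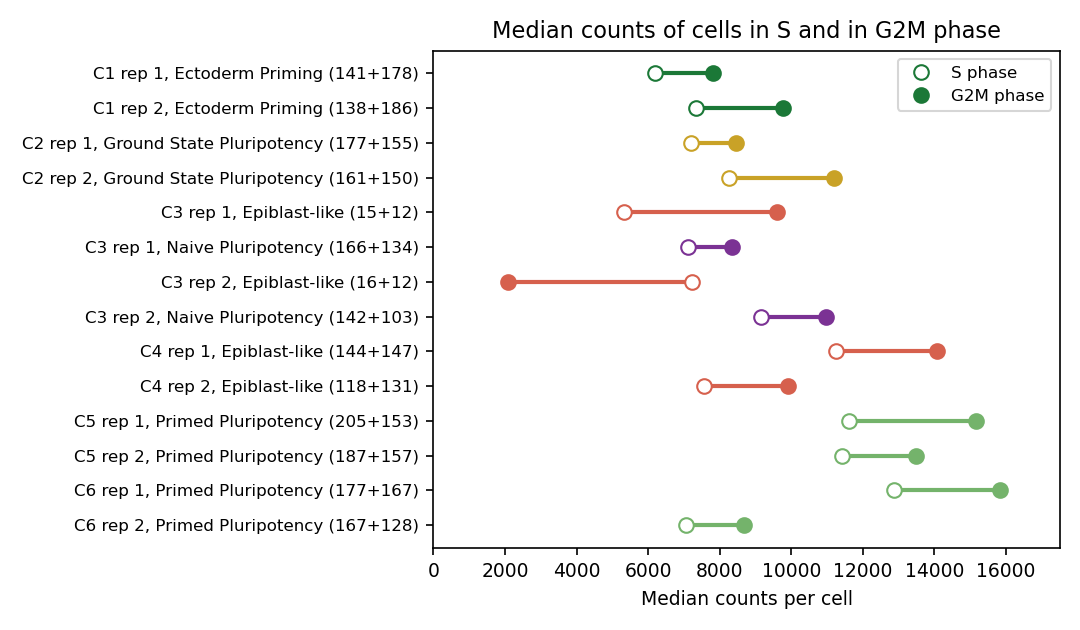
Median counts per cell in S phase (open circles) and in G2M phase (filled circles) for the state with the most cells on each of the 12 plates and for the Epiblast-like cells of condition 3, with the numbers of S and G2M cells in parentheses and 1 colour per state. Filled circles lie to the right of the open ones on every line but that of the Epiblast-like cells of condition 3 replicate 2, at 2090 in G2M and 7216 in S.

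Both plates of condition 4 lay on the same side of both plates of condition 3 for all 8 measures of the members, and with 2 plates each no difference could pass the threshold. The 8 measures are not independent, as genes follow counts and the shares in S and G2M phase are near complements. The median count was higher in condition 4, by 0.78 ± 0.39 log2 units or 1.72-fold, and the number of genes by 0.49 ± 0.23 log2 units or 1.4-fold (SD of the plates around the mean of their condition, n = 2 plates each). The mitochondrial share was higher by 0.301 ± 0.112 percentage points. The share in S phase was lower, at -8.27 ± 1.33 points, and that in G2M phase was higher, at 7.53 ± 1.28 points. Both mean scores were lower, the S score at -0.00378 ± 0.00281 and the G2M score at -0.00465 ± 0.00247. Genes at equal counts were higher by 0.02 ± 0.01 log2 units. That measure is relative to all cells of the same plate, so its difference between conditions also depends on the other cells of each plate. For each measure the exact two-sided permutation test of 2 plates against 2 gave p = 0.333, the smallest it can give, and 0.5625 after adjustment. The plates are technical replicates of 1 culture per condition, so this p covers the spread of plates only and does not test the conditions.

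The size of these differences moved with the cells and the summary used. Over cells with 2000 counts or more, the difference in counts was 0.44 log2 units, while that in the share in S phase was -12.6 points. Within the middle quartiles of counts the difference in counts was 0.29, and with means in place of medians it was 0.42, where the exact p was 0.667 for both and the plates overlapped. When each plate's members were set against the other cells of that plate, the S score of condition 4 members was higher than that of condition 3 members, by 0.00803, and the G2M score by 0.00693, so both directions turned. On the same relative scale the difference in counts was larger, at 2.25 log2 units, as were that in genes, at 1.55, and that in the G2M-phase share, at 10.8 points. The other cells were mostly Naive cells in condition 3, while in condition 4 they included 24 Ground State cells under 2000 counts. The part of the other cells in these relative values was not tested. Since every condition 4 member shared a culture and a pair of libraries, the length of 2i treatment and the library cannot be told apart.

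Set against the most frequent state of every other plate, the Epiblast-like cells of condition 4 lay within the range of the other plates for counts, genes, mitochondrial share, both scores and both phases. Their median counts ranked 3rd and 7th of 12 plates, inside the 6942 to 13766 of the other 10. The mitochondrial share ranked 5th and 6th, inside 4.5% to 8.03%. The share in S phase ranked 9th and 10th, inside 42.6% to 57.7%, and that in G2M phase ranked 4th and 3rd, inside 41.9% to 57.4%. The S score ranked 8th and 11th, and the value of replicate 2, 0.0424, was next to the lowest plate at 0.0423. For genes at equal counts, replicate 2 of condition 4 ranked 1st at 0.00927 log2 units, above the highest other plate at 0.00625. Replicate 1 ranked 4th at 0.00485. The line of this measure is fitted to all cells of a plate, so it places cells only relative to their own plate. Ground State cells of condition 4 had means of -0.119 and -0.137 on the same 2 plates. These ranks therefore do not compare genes at equal counts between plates.

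Over all plates, the median of 10021 counts of the Epiblast-like cells was second to the 11404 of the Primed Pluripotency cells, and the Naive cells had 8618. Their median mitochondrial share of 5.67% lay between the 5.26% of the Naive cells and the 6.27% of the Ground State cells. The S-phase share of 49.0% was between the 43.6% of Ectoderm Priming and the 51.0% of Ground State Pluripotency. These values set states side by side that came from different plates, so state and library cannot be told apart in them.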

How the data were processed

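Per-cell tables of mESCs on 12 plates were analysed. The authors trimmed reads with cutadapt 4.1, mapped them with STAR 2.5.3a to strain-masked GRCm38, removed duplicates and dropped cells under 500 reads, under 100 genes or over 40% mitochondrial reads. Counts, mitochondrial share and phase were regressed out before clustering. The deposited counts per cell are whole numbers. The deposited mitochondrial fraction was multiplied to percent. The cell cycle score values were deposited by the authors without unit. A deposited report gives reads per library, of which 3 names belong to no sample and were left out. Without gene counts, no thinning of cells to a common depth and no doublet search was done. The table holds 28 cells under 500 counts, 7 of them Epiblast-like.

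Plates were grouped by the labels, and hours of treatment come from the study's methods. Intervals are 95% Wilson intervals, and where no cell was found the share of 3 cells is the upper limit. The 8 measures were medians (counts, genes, mitochondrial share), means (scores, genes at equal counts) or percentages per plate. Comparisons within plates needed 10 cells of both states. The tests were exact, with a threshold of 0.05 and Benjamini-Hochberg adjustment over 24 tests. Plates are technical replicates, so p-values measure only their spread. Otx2, Fgf5 and Pou3f1 were the only genes set to be named. The members and lists were chosen with earlier results of these data known.

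Alternatives were at least 1000 counts, at most 20% mitochondrial reads, the middle quartiles of counts, means for medians and the reverse, 5 or 20 cells as the minimum, 5 or 30 neighbours, values relative to the plate, the replicate number as a block, and each plate left out. A minimum of 2000 counts and a crossed pairing were added after seeing the data. Scripts were tested on simulated data, with Python 3.11.15, NumPy 2.4.6, pandas 2.3.3, SciPy 1.17.1 and Matplotlib 3.10.9.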

Additional observations from a re-analysis of the deposited data

Results flagged for a closer look

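Chance alone marks about 1 in 20 groups of 4 plates as holding an outlying plate. The difference in log2 median counts between Epiblast-like and Naive cells was -0.97 on replicate 2 of condition 3, far from the other 3 plates, which lay between -0.07 and 0.10. The difference in S score between Epiblast-like and Ground State cells was -0.0178 on replicate 2 of condition 4, against 0.0024 to 0.004 on the other 3 plates, and it rests on 12 Ground State cells with a median of 564.5 counts.

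In 3 further results both plates of condition 3 lay on 1 side of 0 and both plates of condition 4 on the other. Such a split can also arise by chance, at a rate that was not computed, and the difference between the conditions was not tested. The log2 number of genes of Epiblast-like cells minus that of Naive cells had a mean of -0.33 in condition 3 and 0.049 in condition 4. The share in S phase of Epiblast-like cells minus that of Ground State cells had a mean of 14.8 points in condition 3 and -19.5 points in condition 4, and the share in G2M phase had -12.3 and 18.8 points. As nearly every cell was called in S or G2M, these shares are near complements and not separate results. In condition 4 they rest on 13 and 12 Ground State cells, of which 24 had under 2000 counts.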

How the results depend on the processing

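No test passed the threshold of 0.05, which the smallest possible p of 0.125 over 4 plates and of 0.333 for 2 against 2 did not allow, also without adjustment. Over 282 alternative values, 37 reversed in sign, 8 shares moved by more than the plates differ, and of the other 237 the differences kept their sign, though not always their size.

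Against Ground State cells, 24 of the 25 cells of condition 4 had under 2000 counts, and most reversals arose where they were left out. With at least 1000 counts, at least 20 cells or at least 2000 counts, the S-phase difference was 15.8, 14.8 and 15.4 points, the G2M-phase difference -14.1, -12.3 and -13.6, the mitochondrial one -0.155, -0.256 and -0.0743 and the S score one 0.00375, 0.00331 and 0.0062. The G2M score difference was -0.000339 and -0.00175, and genes at equal counts -0.000509 and -0.00521, with 1000 and 2000 counts. Exchanging means and medians gave 0.00212 for the S score and -0.000121 for the G2M score. The difference in log2 counts, 2.14, was 0.349 with at least 20 cells and 0.2 with at least 2000 counts. Leaving out 1 plate gave -8.35 to 6.09 points in S phase, -4.67 to 8.47 in G2M phase and -0.00424 to 0.0030 for the S score.

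Against Naive cells, the differences in counts and genes were 0.00943 and 0.0077 with at least 2000 counts and 0.0441 and 0.0141 within the middle quartiles of counts, where the S and G2M shares differed by -2.17 and 1.83 points. Exchanging means and medians gave -0.00202 for the G2M score and 0.00865 for genes at equal counts. Leaving out 1 plate gave -0.349 to 0.0060 log2 units for counts, -0.209 to 0.00922 for genes, -0.0123 to 0.00449 for genes at equal counts and -0.0783 to 0.346 points for mitochondrial reads. Counts and genes turned only without replicate 2 of condition 3. Without replicate 2 of condition 4, or with at least 20 cells per state, the S-phase difference was 1.32 points and that in S score 0.00161.

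For condition 4 minus condition 3 members, values relative to the plate gave 0.00803 for the S score and 0.00693 for the G2M score, and means exchanged for medians gave 0.00682 for the latter. The log2 difference in counts, 0.784, was 0.29 within the middle quartiles and 0.416 with means, and that in genes was 0.173 and 0.296. Relative to the other cells of the plate they were 2.25 for counts and 1.55 for genes. Those other cells included 24 Ground State cells under 2000 counts in condition 4. With the replicate number as a block, the difference in log2 counts stayed 0.784 with an exact sign-flip p of 0.5, the smallest 2 pairs allow. The numbers share no culture day in the labels, and deviations of equal numbers correlated at -0.317 over 8 measures. A crossed pairing, chosen after seeing the data, made 0 calls of 8, as did the block and the test without it, with 0 also at an unadjusted p under 0.05. None of these settings can give a p under 0.05 with so few plates, so this outcome was fixed in advance and shows no robustness.

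The share of member neighbours in condition 3 was 72.0% with 5 neighbours, 72.3% with at least 1000 counts, 71.6% with at least 2000 and 71.2% to 76.5% with 1 plate left out, and 94.5% to 98.0% in condition 4. With at least 2000 counts, the Epiblast-like share was 6.78% in condition 3 and 89.5% in condition 4. The names of cells under 2000 counts were not checked at equal depth. The comparison with the Ground State rests on 13 and 12 cells of that state in condition 4, of which 24 had under 2000 counts.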
